A study of Mus musculus with 9 samples.

Results

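The genes described here are alpha and beta tubulin genes measured in mouse liver, by the probe sets of a mouse expression array that the platform annotation assigns to exactly 1 gene. The list holds 10 genes, the beta tubulins Tubb2a, Tubb2b, Tubb4b, Tubb5 and Tubb6 and the alpha tubulins Tuba1a, Tuba1b, Tuba1c, Tuba4a and Tuba8. Of the 22626 probe sets on the array that are not controls, 17 met the rule, and they belong to 8 of the 10 genes. The probe sets of Tuba1b and Tuba1c, 1 and 2 in number, also list another gene, so these genes have no values here. The family was chosen by its array intensities, which were lower in vehicle-treated livers with a tumour elsewhere in the body than in livers of mice without tumour, so that comparison is given below as a description. Its differences carry no p-value, and its count of calls follows from the choice and supports nothing.

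Livers came from 3 groups of 3 samples. T-TSU livers were from tumour-bearing mice given TSU68, a small molecule that blocks the kinase receptors for VEGF, PDGF and FGF, at 400 mg/kg per day by mouth in divided daily doses. T-Co livers were from tumour-bearing mice given vehicle. NT-Co livers were from mice without tumour given vehicle. In the tumour-bearing groups TK-4, a human colon cancer, had been placed in the cecal wall of male BALB/c nu/nu mice aged 6 weeks, and treatment began on day 7 after implantation and lasted 1 week. These mice are athymic and lack T cells. For the NT-Co mice no separate strain, sex, age or operation was stated in the labels used here, so the tumour and the operation to place it cannot be told apart. Livers of TSU68-treated mice without tumour were not analysed here, so the drug was compared only between tumour-bearing groups. The labels number the samples but do not say that each is a separate animal, so the errors and p-values cover only the spread between samples. All samples were whole liver, in which fewer cells of a type and less RNA per cell cannot be told apart.

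Alpha and beta tubulin pair into dimers, and the dimers polymerise into microtubules, along which motor proteins carry vesicles and organelles. In hepatocytes, microtubules carry secretory vesicles with plasma proteins and lipoproteins towards the blood, and membrane proteins towards the bile canaliculus. The members of each family are encoded by separate genes with closely similar coding sequences, and cells adjust the stability of their tubulin mRNAs to the amount of free dimer through a pathway that uses the protein TTC5. Because of that similarity, probe sets of one member may pick up RNA of another. Probe set names ending in _a_at mark probes shared by several transcripts of 1 gene, those ending in _s_at mark probes shared by transcripts of several genes, and those ending in _x_at contain some probes that also match other sequences.

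Promoter sequences are shown for the 4 genes with a probe set that passed the test between T-TSU and NT-Co livers, so that genes with lower signal can be compared base by base. The sequences are from RefSeq (GRCm38.p6), each the 250 bases before the annotated start, written 5' to 3' along the gene's own strand, the minus strand in all 4 cases. The window of Tubb2a is chr13:34078009-34078258, that of Tubb4b chr2:25224703-25224952, that of Tubb5 chr17:35838302-35838551 and that of Tuba4a chr1:75219295-75219544. The first 3 windows adjoin the end of the annotated gene where transcription starts, whereas that of Tuba4a lies within the gene's annotated span, before the start that the promoter table uses. Capitals mark matches, on either strand, to the following motifs. They are CCAAT for the CCAAT box, GGGCGG for the GC box, TATAAA for the TATA box, TGACGTCA for the cAMP response element, CACGTG for the E-box and TTATGTAA for the D-box, and no matches overlap in these windows.
Tubb2a: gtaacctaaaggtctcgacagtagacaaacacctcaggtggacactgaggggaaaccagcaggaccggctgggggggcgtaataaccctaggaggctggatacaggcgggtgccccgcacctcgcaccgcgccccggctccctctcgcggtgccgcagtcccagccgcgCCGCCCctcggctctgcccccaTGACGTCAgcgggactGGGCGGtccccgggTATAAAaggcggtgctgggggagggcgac
Tubb4b: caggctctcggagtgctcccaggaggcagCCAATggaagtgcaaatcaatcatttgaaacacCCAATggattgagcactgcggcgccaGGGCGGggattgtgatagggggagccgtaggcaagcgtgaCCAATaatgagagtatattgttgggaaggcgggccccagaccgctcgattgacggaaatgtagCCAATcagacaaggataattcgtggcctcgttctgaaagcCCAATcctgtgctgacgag
Tubb5: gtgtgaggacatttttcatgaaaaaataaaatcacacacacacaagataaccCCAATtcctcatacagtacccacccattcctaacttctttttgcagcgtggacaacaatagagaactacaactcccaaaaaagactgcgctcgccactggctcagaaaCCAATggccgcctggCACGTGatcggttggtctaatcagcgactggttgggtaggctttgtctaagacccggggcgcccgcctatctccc
Tuba4a: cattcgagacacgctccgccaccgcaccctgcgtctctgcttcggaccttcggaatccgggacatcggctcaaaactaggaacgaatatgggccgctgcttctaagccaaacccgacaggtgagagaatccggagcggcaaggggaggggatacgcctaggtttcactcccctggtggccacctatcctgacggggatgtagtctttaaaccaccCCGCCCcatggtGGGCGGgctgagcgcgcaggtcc
The Tubb2a window held 1 TATAAA, 1 TGACGTCA and 2 GC boxes. The Tubb4b window held 5 CCAAT and 1 GC box, and the Tubb5 window held 2 CCAAT and 1 CACGTG. The Tuba4a window held 2 GC boxes. No motif was present in all 4 windows, and TTATGTAA was in 0 of them. Among 32851 RefSeq promoter windows of the same length, CCAAT was present in 33.8%, GGGCGG in 32.7%, TATAAA in 12.4%, CACGTG in 6.02%, TGACGTCA in 1.55% and TTATGTAA in 0.819%. The matches are letters in a sequence and do not show that a factor binds.

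The deposited values are linear intensities, and the arrays were alike in overall level, with medians of 107 to 119. Within a group, arrays correlated with each other at a mean of 0.947 to 0.964. The 3' to 5' signal ratio of beta-actin, which depends on how intact the RNA was and on its labelling, was 2.02 ± 0.20 in T-TSU, 1.98 ± 0.11 in T-Co and 2.72 ± 0.44 in NT-Co livers (SD, n = 3 each). NT-Co arrays did not overlap with the others in this ratio, and its part in the tubulin differences was not tested. The same ratio for Gapdh was 0.767 ± 0.075 in T-TSU, 0.765 ± 0.039 in T-Co and 0.765 ± 0.031 in NT-Co livers. Probe sets whose mean log2 value over the 9 arrays was under the 30th percentile, which corresponds to an intensity of 36.2, were left out of the fit. Of the 17 tubulin probe sets, 12 passed this filter, and they belong to Tubb2a, Tubb4b, Tubb5, Tubb6, Tuba1a and Tuba4a. The filter used all 9 arrays, so a probe set could pass through 1 bright group alone. Differences are on the scale of log2(intensity + 7.92), which understates the change of dim probe sets, and are given ± SE from a limma fit to all 9 arrays. A call is an adjusted p under 0.05 by limma with Benjamini-Hochberg adjustment over the 15838 probe sets that passed. Counts at an unadjusted p under 0.05 are given without the share over all probe sets, which was not counted.

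Tubb2a, a beta tubulin best known from brain, had the largest differences from NT-Co livers among the tubulins. Its brighter probe set, 1427347_s_at, had intensities of 393, 434 and 343 in T-TSU livers, 985, 221 and 1362 in T-Co livers, and 5977, 3571 and 5375 in NT-Co livers. The NT-Co arrays were far above all 6 arrays of tumour-bearing mice, and the T-Co arrays were spread widely, with replicate 10 lowest of all 9. Means were 390.1 ± 45.7 in T-TSU, 856 ± 581 in T-Co and 4974 ± 1252 in NT-Co livers (SD, n = 3 each), so the T-TSU mean was 7.84% and the T-Co mean 17.2% of the NT-Co mean. Between T-Co and NT-Co livers the difference was -2.84 ± 0.49 (log2), or 7.18-fold lower in T-Co. Tubb2a fell by 3.62 ± 0.49 on the log2 scale in T-TSU livers relative to NT-Co livers (12.3-fold lower, limma adjusted p = 0.00202, 95% interval -4.68 to -2.55), in 3 of 3 T-TSU samples. This call held with each of the 9 arrays left out in turn, with a highest adjusted p of 0.0150. The NT-Co arrays also entered the choice of the family, so the call is not independent of that choice, and leaving out arrays does not change this. The suffix of this probe set means that related transcripts, such as that of Tubb2b on the same chromosome, may contribute to its signal.

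The other Tubb2a probe set, 1427838_at, was much dimmer. Its intensities were 31.8, 40.7 and 17.2 in T-TSU livers, 69.1, 2.92 and 95.2 in T-Co livers, and 142, 161 and 165 in NT-Co livers. All NT-Co arrays were again above all others, and T-Co replicate 10 was again lowest. The difference of T-TSU from NT-Co livers was -2.17 ± 0.69 (log2) and did not pass the test (limma adjusted p = 0.115). This probe set passed the filter above all through its NT-Co arrays, so its order against them follows in part from the filter.

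Tubb4b, a beta tubulin of most tissues and a main component of cilia, had 6 probe sets, and 4 passed the filter. The brightest, 1423642_at, had intensities of 978, 1607 and 1142 in T-TSU livers, 2739, 1276 and 2059.8 in T-Co livers, and 3253, 3818 and 3206 in NT-Co livers. NT-Co arrays did not overlap with those of either tumour-bearing group, while T-TSU and T-Co arrays overlapped. The T-TSU mean was 36.3% and the T-Co mean 59.1% of the NT-Co mean. The T-Co difference from NT-Co was -0.82 ± 0.25 (log2). Tubb4b fell by 1.48 ± 0.25 on the log2 scale in T-TSU relative to NT-Co livers (2.80-fold lower, limma adjusted p = 0.00617, 95% interval -2.02 to -0.94), in 3 of 3 T-TSU samples. The call held with each of the 9 arrays left out, with a highest adjusted p of 0.0333. As for Tubb2a, it is not independent of the choice of the family.

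The other Tubb4b probe sets tested all carry the _x_at suffix and did not follow the brightest one closely. Probe set 1456470_x_at had intensities of 193, 109 and 171 in T-TSU livers, 155, 68.5 and 127 in T-Co livers, and 301, 193 and 329 in NT-Co livers. T-Co livers differed from NT-Co livers by -1.21 ± 0.32 (log2) without overlap, whereas T-TSU and NT-Co arrays overlapped and differed by -0.77 ± 0.32 (limma adjusted p = 0.246). Probe set 1438622_x_at ranged from 74.1 to 114 in T-TSU, 52.1 to 110.0 in T-Co and 58.1 to 96.1 in NT-Co livers. Probe set 1456078_x_at ranged from 25.2 to 67.3 in T-TSU, 44.4 to 118 in T-Co and 38.1 to 192 in NT-Co livers, with NT-Co replicate 8 alone above the other NT-Co arrays at 47.2 and 38.1. The 2 differed between T-TSU and NT-Co livers by 0.27 ± 0.35 and -0.71 ± 0.58 (log2), with limma adjusted p-values of 0.777 and 0.611, and their groups overlapped.

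Tubb5, the beta tubulin found in most cell types, had 2 probe sets that differed in pattern. Probe set 1416256_a_at had intensities of 666, 762 and 459 in T-TSU livers, 1068, 699 and 789 in T-Co livers, and 1030.1, 1143 and 1309 in NT-Co livers. The T-TSU arrays were all below the NT-Co arrays, and T-Co replicate 9 lay within the NT-Co range. Tubb5 by this probe set fell by 0.90 ± 0.21 on the log2 scale in T-TSU relative to NT-Co livers (1.87-fold lower, limma adjusted p = 0.0333, 95% interval -1.36 to -0.44). The call was lost without NT-Co replicate 8, 10 or 11 (adjusted p = 0.0691, 0.0871 and 0.141) and without T-TSU replicate 2 or 14 (0.0601 and 0.133), and without the intensity trend (0.102). The T-Co difference from NT-Co was -0.46 ± 0.21 (log2), with overlap.

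The dimmer Tubb5 probe set, 1455719_at, had intensities of 249, 278 and 235 in T-TSU livers, 324, 302 and 344 in T-Co livers, and 302, 247 and 383 in NT-Co livers. T-Co and NT-Co livers differed by 0.07 ± 0.19 (log2) and T-TSU and NT-Co livers by -0.27 ± 0.19 (limma adjusted p = 0.550). It was the only tubulin probe set tested with every T-TSU array below every T-Co array, with a difference of -0.34 ± 0.19 (limma adjusted p = 0.574). Of all probe sets tested, 7.39% showed that order.

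Tubb6, a beta tubulin found at modest levels in many tissues, had 1 probe set, 1416431_at. Its intensities were 62.0, 89.5 and 74.9 in T-TSU livers, 168, 77.1 and 237 in T-Co livers, and 162, 178 and 208 in NT-Co livers. T-TSU arrays lay below all NT-Co arrays, and T-Co replicate 13 was the highest of the 9. The T-TSU difference from NT-Co was -1.20 ± 0.34 (log2) and missed the threshold (limma adjusted p = 0.0790). With T-Co replicate 10 left out it passed (adjusted p = 0.0161), as it did without T-Co replicate 13 (0.0426) and in a fit of only T-TSU and NT-Co arrays (0.0181). Those 2 omissions concern T-Co arrays, which are not in this contrast. With any other array left out it did not pass, and without NT-Co replicate 11 the adjusted p was 0.237.

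Tuba4a encodes an alpha tubulin whose gene product lacks the C-terminal tyrosine that most alpha tubulins carry, and it had 2 probe sets that passed the filter. Probe set 1417373_a_at had intensities of 7508, 8468 and 5758 in T-TSU livers, 11349, 4529 and 7272 in T-Co livers, and 15332, 15674 and 19039.6 in NT-Co livers. Every array of tumour-bearing mice was below every NT-Co array, and T-Co arrays extended both above and below the T-TSU range. The T-TSU mean was 43.4% and the T-Co mean 46.3% of the NT-Co mean. The T-Co difference from NT-Co was -1.20 ± 0.26 (log2). Tuba4a fell by 1.21 ± 0.26 on the log2 scale in T-TSU relative to NT-Co livers (2.32-fold lower, limma adjusted p = 0.0225, 95% interval -1.78 to -0.65).

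Probe set 1417374_at of Tuba4a had intensities of 2101, 2369 and 2148 in T-TSU livers, 4095, 1363 and 3400.4 in T-Co livers, and 5103, 6071 and 6131 in NT-Co livers. The groups of tumour-bearing mice again did not overlap with NT-Co, and the T-TSU arrays were close together. The T-Co difference from NT-Co was -1.10 ± 0.30 (log2). In T-TSU relative to NT-Co livers this probe set fell by 1.38 ± 0.30 on the log2 scale (2.60-fold lower, limma adjusted p = 0.0247). Both Tuba4a calls were lost without any 1 NT-Co array and without T-TSU replicate 2 or 14, with adjusted p-values of 0.0521 to 0.106 for 1417373_a_at and 0.0610 to 0.0937 for 1417374_at. The second was also lost without T-TSU replicate 12 (0.0706). Both were lost as well without the intensity trend (0.101 and 0.102) and with a robust trend (0.0553 and 0.0571).

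Tuba1a, an alpha tubulin abundant in developing neurons, was represented by 1418884_x_at. Its intensities were 183, 219 and 279.7 in T-TSU livers, 196, 142 and 352 in T-Co livers, and 428, 304 and 325 in NT-Co livers. T-TSU arrays were all below NT-Co arrays, while T-Co replicate 13 lay within the NT-Co range. The differences were -0.68 ± 0.29 (log2) for T-Co and -0.62 ± 0.29 for T-TSU livers, both against NT-Co, and the T-TSU one did not pass (limma adjusted p = 0.313). The probe set name means that signal from other alpha tubulin transcripts, such as those of Tuba1b and Tuba1c on the same chromosome, may be included.

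**Figure D1:**
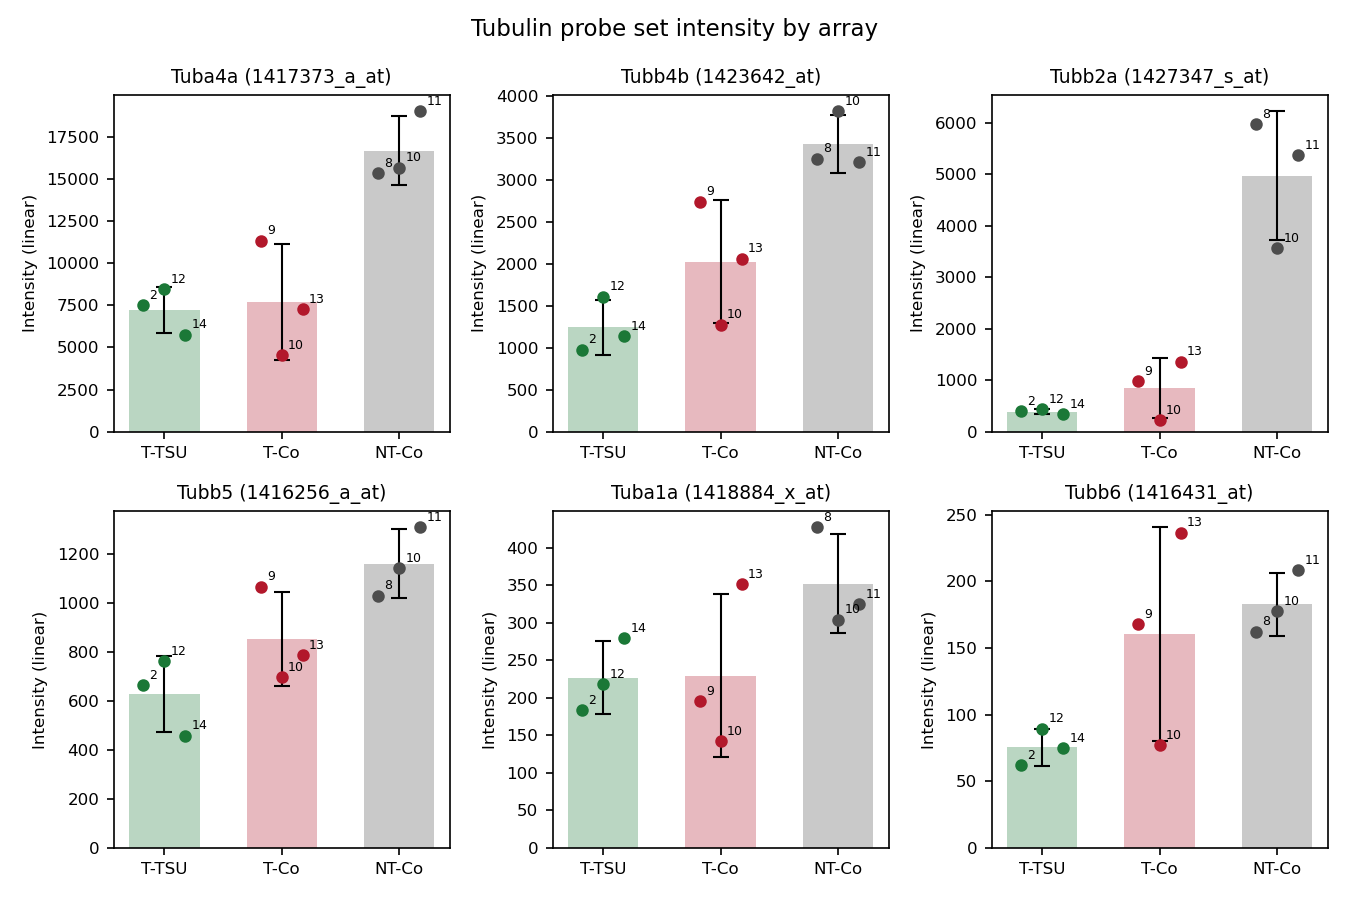
Array intensity (linear scale from 0) of the brightest probe set of each of the 6 tubulin genes tested, with points for single arrays, bars for group means and error bars for the SD (n = 3), in T-TSU, T-Co and NT-Co livers. For Tubb2a the T-TSU arrays lie at 343 to 434 and the NT-Co arrays at 3571 to 5977, and for Tubb5, Tubb6 and Tuba1a at least 1 T-Co array lies within or above the NT-Co range.

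The 5 probe sets left out of the fit were dim, and no difference was fitted for them. Tubb2b, a beta tubulin of developing brain, had intensities of 33.4, 7.87 and 0.699 in T-TSU livers, 16.6, 1.01 and 17.8 in T-Co livers, and 53.8, 23.4 and 40.8 in NT-Co livers. Tuba8, an alpha tubulin known from muscle and testis, had intensities of 22.2, 43.6 and 15.7 in T-TSU livers, 21.3, 24.9 and 13.3 in T-Co livers, and 30.6, 2.79 and 8.11 in NT-Co livers. T-TSU and NT-Co arrays overlapped for both genes, and for Tubb2b but not Tuba8 every T-Co array was below every NT-Co array. That order, in the contrast that chose the family, was found for 12.5% of the probe sets tested, a set without such dim probe sets, so the share is not a like background. The third Tuba4a probe set, 1417375_at, ranged from 13.8 to 21.8 in T-TSU, 35.9 to 56.5 in T-Co and 22.5 to 92.2 in NT-Co livers. The Tubb4b probe set 1439416_x_at ranged from 36.5 to 105 in T-TSU, 3.19 to 16.5 in T-Co and 25.3 to 87.5 in NT-Co livers, so its T-Co arrays too were all below the NT-Co arrays. Probe set 1456031_at of Tubb4b ranged from 1.89 to 42.9 in T-TSU, 1.17 to 22.3 in T-Co and 6.63 to 44.4 in NT-Co livers.

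The comparison of T-TSU with NT-Co livers asked how tubulin signal stood in treated tumour-bearing mice relative to mice without tumour. The groups differ in both tumour and drug, and the NT-Co arrays also entered the choice of the family. Of the 12 tubulin probe sets, 5 fell and 0 rose, and the 5 belong to Tubb2a, Tubb4b, Tubb5 and Tuba4a, the last with both of its probe sets. Of all 15838 probe sets, 3.85% were called in this comparison, 1.36% as lower and 2.49% as higher. For 8 of the 12 probe sets, covering all 6 genes, every T-TSU array was below every NT-Co array, an order found for 11.6% of all probe sets. Among the 8 is the dimmer Tubb2a probe set, which passed the filter above all through its NT-Co arrays. The difference was below 0 for 11 of 12, against 50.1% of all, and the median was -1.05 (log2), against -0.00 over all. Because this comparison shares NT-Co arrays with the one that chose the genes, and tumour with it as well, these counts are not independent of that choice.

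Between T-Co and NT-Co livers, the contrast that chose the family, the values below describe that choice and are no evidence about it. The fit called 4 of the 12 probe sets, all lower, and 6.54% of all probe sets, 2.38% as lower and 4.16% as higher. The 4 were the bright Tubb2a probe set, both of Tuba4a and 1456470_x_at of Tubb4b. Every T-Co array was below every NT-Co array for 6 of 12, an order found for 12.5% of all. The difference was below 0 for 10 of 12, against 49.2% of all, and the median was -0.75 (log2), against 0.01 over all.

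Setting T-TSU beside T-Co livers asked how tubulin signal differed with TSU68 in tumour-bearing mice. The T-Co arrays entered the choice of the family too, as its low group, so this comparison is not independent of that choice either. By limma 0 of 12 tubulin probe sets passed, where 0.0505% of all probe sets did (0.0126% lower and 0.0379% higher), and 2, those of Tubb6 and the bright one of Tubb4b, had an unadjusted p under 0.05. Tubb6 differed by -0.90 ± 0.34 between T-TSU and T-Co livers, with overlapping arrays (log2, limma adjusted p = 0.387, 95% interval -1.65 to -0.15). Tubb4b differed by -0.66 ± 0.25 (adjusted p = 0.379, 95% interval -1.20 to -0.13), and Tubb5 by -0.44 ± 0.21 (1416256_a_at, adjusted p = 0.495, 95% interval -0.90 to 0.02). Tubb2a differed by -0.77 ± 0.49 (1427347_s_at, adjusted p = 0.627, 95% interval -1.84 to 0.29). Without T-Co replicate 10 the Tubb2a difference was -1.56 and passed the test (adjusted p = 0.0426), the only tubulin probe set to do so with any array left out. Tuba4a differed by -0.01 ± 0.26 (1417373_a_at, adjusted p = 0.996, 95% interval -0.58 to 0.56) and by -0.28 ± 0.30 (1417374_at, 0.805, -0.93 to 0.38). Tuba1a differed by 0.06 ± 0.29 (adjusted p = 0.968). The intervals leave room for differences of either sign for Tubb2a, Tuba4a and Tubb5. The difference was below 0 for 9 of 12 probe sets, against 51.3% of all, with a median of -0.31 (log2), against -0.01 over all.

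**Figure D2:**
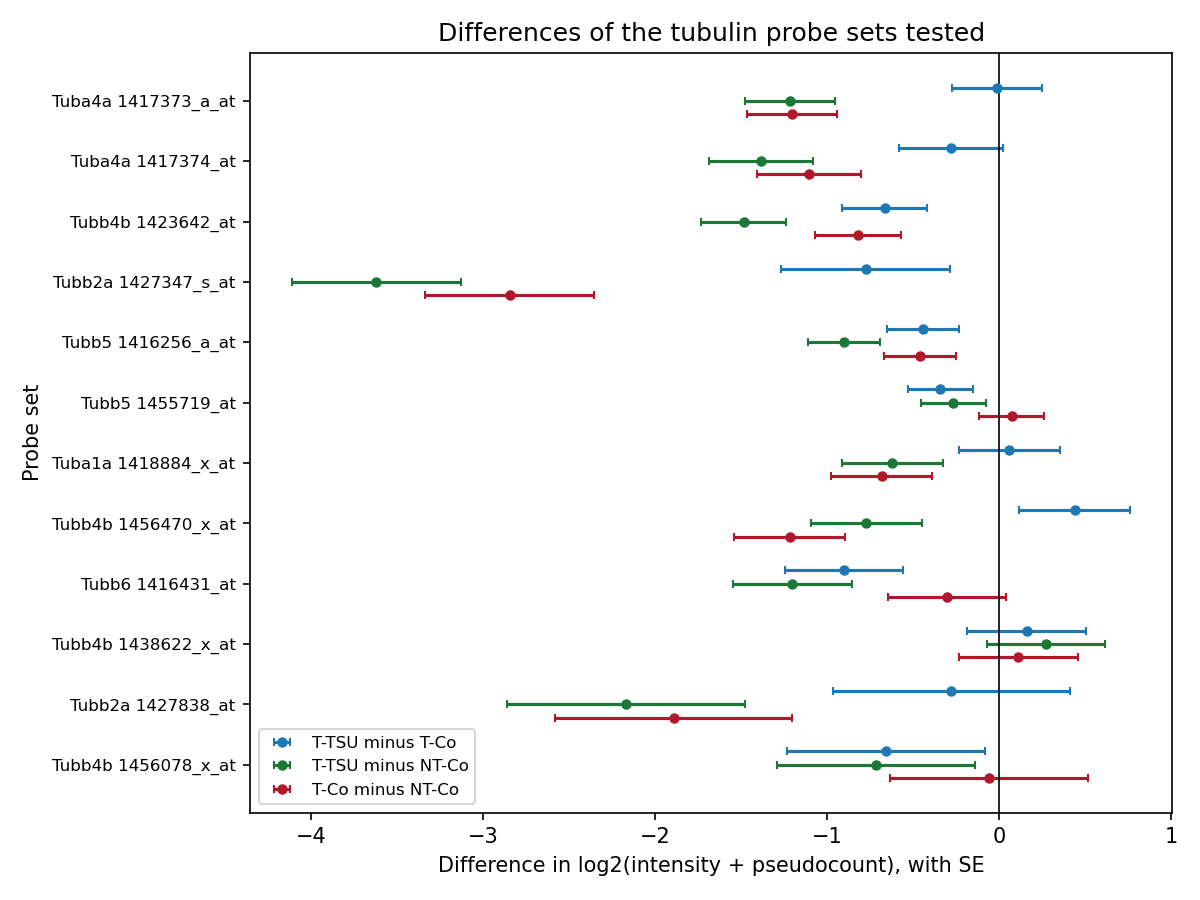
Difference in log2(intensity + 7.92) for each of the 12 tubulin probe sets tested, with bars for ± SE from limma, comparing T-TSU with T-Co, T-TSU with NT-Co, and T-Co with NT-Co. The 2 Tubb2a probe sets lie farthest below 0 in both comparisons with NT-Co, at -3.62 and -2.17 for T-TSU and at -2.84 and -1.89 for T-Co, and the T-Co differences were used to choose the family. The dimmer of the 2 passed the filter above all through its NT-Co arrays.

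The T-Co livers differed among themselves in tubulin signal. T-Co replicate 10 was the lowest T-Co array for the brightest probe set of all 6 genes and for 10 of the 12 probe sets, where it was lowest for 32.9% of all probe sets. The T-Co arrays entered the choice of the family as its low group, and some of these probe sets share a gene or may share signal. The counts are therefore not independent of the choice or of each other. Relative to the NT-Co mean, the median of the 6 genes was -1.33 (log2) in T-Co replicate 10, against -0.43 in replicate 9 and -0.64 in replicate 13. The T-TSU medians were -1.29, -0.97 and -1.42 for replicates 2, 12 and 14, and the NT-Co medians were between -0.09 and 0.16. T-Co replicate 10 thus lay within the range of the T-TSU arrays, and T-Co replicates 9 and 13 lay between T-TSU and NT-Co. For Tubb2a alone, T-Co replicate 10 was at -4.41, below the T-TSU arrays at -3.79 to -3.46, while T-Co replicates 9 and 13 were at -2.29 and -1.83. Tubb6 and Tuba1a in T-Co replicate 13 were at 0.37 and 0.01, level with or above the NT-Co mean.

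**Figure D3:**
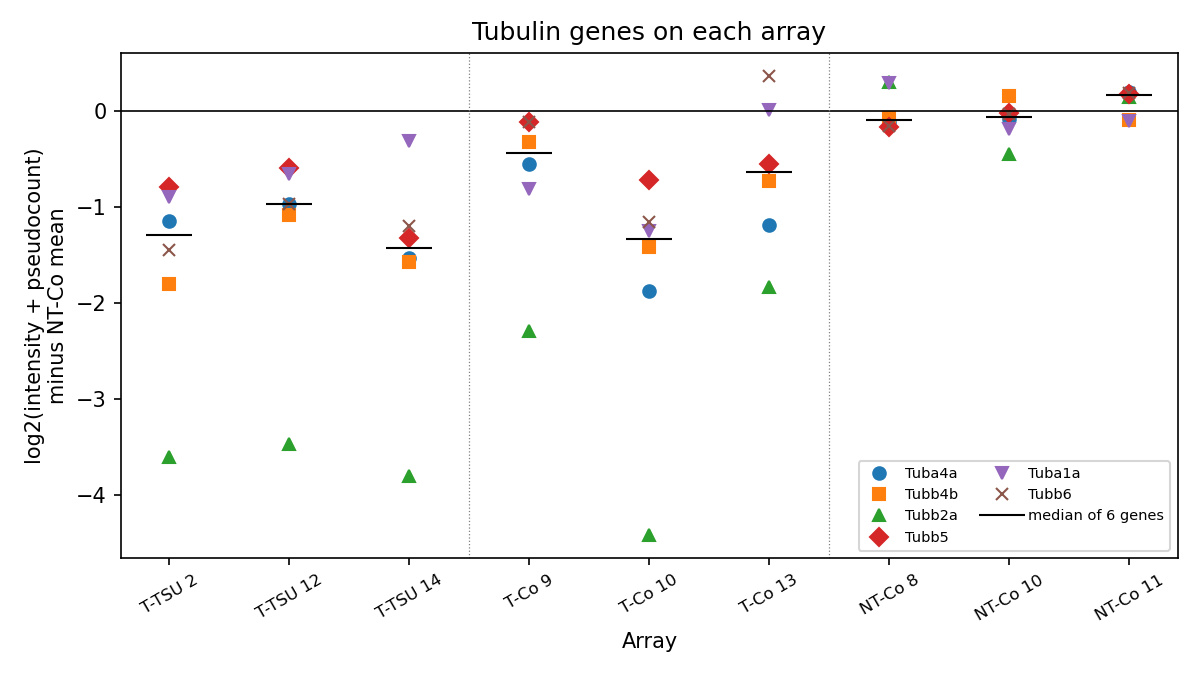
Log2 intensity of the brightest probe set of each of 6 tubulin genes on each array, as the deviation from the NT-Co mean, with a line at the median of the 6 genes, for T-TSU, T-Co and NT-Co arrays. The median lies at -1.42 to -0.97 in T-TSU arrays, at -1.33 to -0.43 in T-Co arrays and at -0.09 to 0.16 in NT-Co arrays, and T-Co replicate 10 is the lowest T-Co array.

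The tubulin genes were alike to differing degrees over the 9 arrays. Pearson correlations of log2 values between the brightest probe sets of the 6 genes ran from 0.352 for Tuba1a with Tubb5 to 0.918 for Tubb2a with Tuba4a. These values describe 9 arrays that share their 3 groups, and probes of related genes may share signal. Over 14542 single-gene probe sets, those most like the bright Tubb2a probe set were Chka (0.981), S1pr1 (0.976), Mtfmt (0.974), Caprin1 (0.973) and Tia1 (0.971), followed by 2 of Trim2, 2 of Lgalsl and 1 of Med8 (0.965 to 0.968). Chka encodes choline kinase alpha, the first enzyme of phosphatidylcholine synthesis from choline, and S1pr1 a receptor for sphingosine-1-phosphate. The other tubulin probe sets closest to it were those of Tuba4a, at 0.952 (1417374_at, place 20 in the order) and 0.918 (1417373_a_at, place 61), the dimmer one of Tubb2a itself at 0.930 (place 42) and the brightest of Tubb4b at 0.905 (place 81). Tubb5 (1416256_a_at) was at 0.820, Tubb6 at 0.818 and Tuba1a at 0.803, on places 300, 304 and 352. The Tubb4b probe set 1438622_x_at was the only tubulin probe set tested with a correlation below 0, at -0.421.

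Chka intensities were 149, 190.0 and 162 in T-TSU livers, 279.7, 172 and 468 in T-Co livers, and 1076, 826 and 890.2 in NT-Co livers. As with Tubb2a, T-Co replicate 10 was the lowest T-Co array and NT-Co arrays stood above all others. Chka was picked for its correlation with Tubb2a over these same arrays, so this likeness follows from the pick. The lowest correlations with Tubb2a were those of Rab5c (-0.973), Dbp (-0.972), Gpt2 (-0.971), Stard5 (-0.971) and Klhl24 (-0.969). Dbp, a transcription factor whose level follows the circadian clock, had intensities of 2647, 1142 and 1222.5 in T-TSU livers, 858, 2052 and 203 in T-Co livers, and 25.9, 47.0 and 39.1 in NT-Co livers. Dbp was highest among T-Co arrays in replicate 10 and lowest in replicate 13, the reverse of the Tubb2a order. Dbp too was picked by its correlation with Tubb2a, so the reversed order follows from the pick. The labels do not state the hour at which livers were collected.

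**Figure D4:**
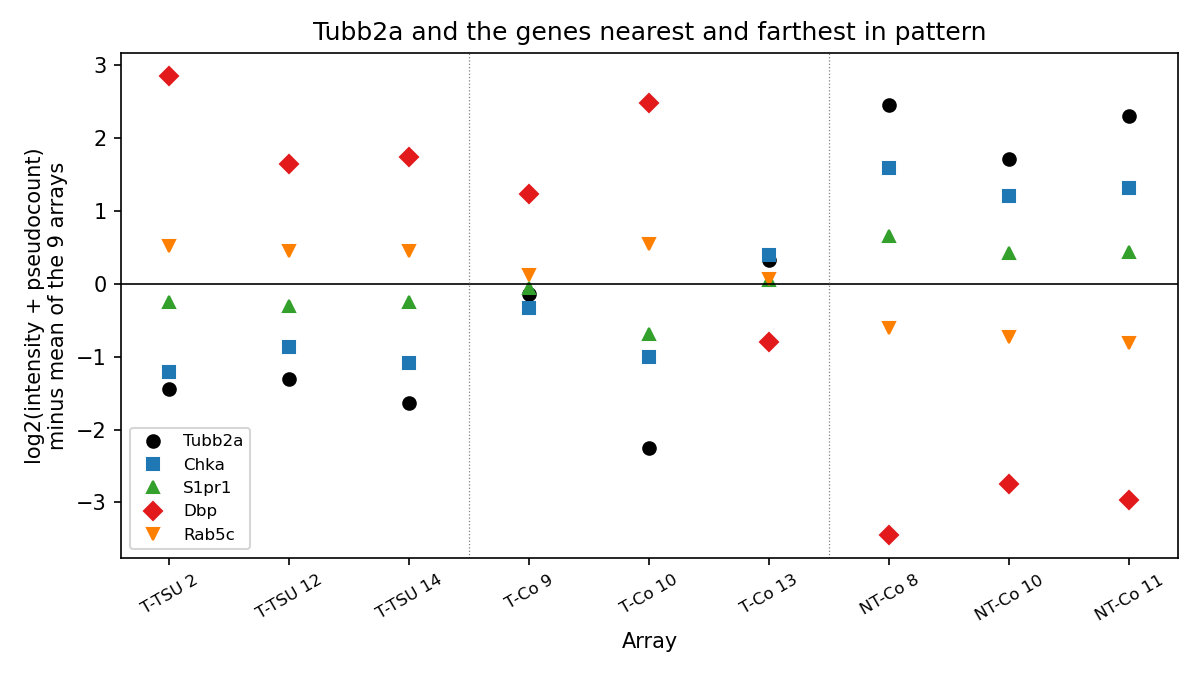
Log2 intensity of the bright Tubb2a probe set and of Chka, S1pr1, Dbp and Rab5c on each array, centred on each probe set's mean over the 9 arrays, for T-TSU, T-Co and NT-Co livers. Chka and S1pr1 follow Tubb2a (r = 0.981 and 0.976) and Dbp and Rab5c run the opposite way (r = -0.972 and -0.973).

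Other genes of the microtubule and cytoskeletal system were examined through 8 lists of 132 genes, of which 98 had a probe set of 1 gene that passed the filter, the brightest standing for each gene. In T-TSU against NT-Co livers 3 of the 98 rose and 2 fell, and in T-Co against NT-Co livers 3 rose and 2 fell. Of all probe sets, 2.49% were called higher and 1.36% lower in T-TSU against NT-Co livers, and 4.16% and 2.38% in T-Co against NT-Co livers. The counts of linked genes called were thus near the background. The medians were -0.08 (log2) in both, against -0.00 and 0.01 over all probe sets. In T-TSU against T-Co livers 0 of 98 passed by limma, where only 0.0505% of all probe sets did. The median was -0.00, against -0.01 over all. By limma, an unadjusted p under 0.05 was found for 26 of the 98 in T-TSU against NT-Co livers. The counts were 17 in T-Co against NT-Co and 12 in T-TSU against T-Co livers, with no share over all probe sets beside them.

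Among 20 genes for tubulin folding and assembly, Pfdn2, a subunit of prefoldin, which hands newly made actin and tubulin to the chaperonin CCT, had intensities of 1179.5, 1099 and 889 in T-TSU livers, 1181, 1042 and 795 in T-Co livers, and 328, 445 and 423 in NT-Co livers. Both groups of tumour-bearing mice were above all NT-Co arrays. Pfdn2 rose by 1.39 ± 0.19 (log2, limma adjusted p = 0.00202) in T-TSU and by 1.31 ± 0.19 (0.00211) in T-Co livers, both against NT-Co, and passed with each array left out. Cct3, a subunit of CCT, had intensities of 2721, 2958 and 2508 in T-TSU livers, 3632, 2758 and 2634 in T-Co livers, and 4276, 4445 and 4308 in NT-Co livers. Cct3 fell by 0.67 ± 0.14 (log2, limma adjusted p = 0.0161) in T-TSU and by 0.54 ± 0.14 (0.0337) in T-Co livers, both against NT-Co. Tbcb, a cofactor that binds alpha tubulin during dimer assembly, fell by 0.82 ± 0.20 in T-TSU livers (log2, adjusted p = 0.0418) and differed by -0.62 ± 0.20 in T-Co livers (0.0901), both against NT-Co.

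Among 7 tubulin-modifying enzymes, Ttll1, a subunit of a polyglutamylase that adds glutamate chains to tubulin, fell by 0.76 ± 0.21 in T-Co against NT-Co livers (log2, limma adjusted p = 0.0492), and 0 passed in T-TSU against NT-Co livers, with 1 at an unadjusted p under 0.05. Mapre2, which binds growing microtubule ends, was the only 1 of 18 microtubule-associated and severing proteins called, and rose by 1.03 ± 0.22 in T-TSU against NT-Co livers (log2, adjusted p = 0.0231). Of 22 microtubule motors, the kinesin Kif21a rose by 0.76 ± 0.16 in T-Co against NT-Co livers (log2, adjusted p = 0.0153) and differed by 0.53 ± 0.16 in T-TSU against NT-Co livers (0.0989). Of 21 actin and intermediate filament genes, Pfn1, the actin-monomer binding protein profilin, was called. It had intensities of 3175, 3091 and 2998 in T-TSU livers, 2469, 2388 and 3048 in T-Co livers, and 1292, 1057 and 906 in NT-Co livers. Pfn1 rose by 1.52 ± 0.15 (log2, limma adjusted p = 0.000329) in T-TSU and by 1.28 ± 0.15 (0.000902) in T-Co livers, both against NT-Co, and passed with each array left out.

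Several of these calls rest on single arrays. Without 1 of the 3 NT-Co arrays or T-TSU replicate 14, the adjusted p of Cct3 in T-TSU against NT-Co livers was 0.0587 to 0.0800. For Tbcb it was 0.0689 to 0.168 without 1 NT-Co array or T-TSU replicate 12 or 14, and for Mapre2 0.0524 to 0.102 without the same arrays. In T-Co against NT-Co livers, Cct3 was at 0.0823 to 0.110 without 1 NT-Co array or T-Co replicate 10 or 13, and Kif21a at 0.0668 and 0.0669 without NT-Co replicate 11 or 8. Ttll1 was called with only 1 of the 9 arrays left out, T-Co replicate 9.

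Of 3 other tubulin genes tested, 0 passed in any comparison by limma, with 1 at an unadjusted p under 0.05 in T-Co against NT-Co livers. Of all probe sets, 0.0505% (T-TSU against T-Co) to 6.54% (T-Co against NT-Co) passed. Tuba3b, an alpha tubulin known from testis, had intensities of 41.6, 43.3 and 48.1 in T-TSU livers, 45.8, 134 and 44.2 in T-Co livers, and 22.4, 6.08 and 21.3 in NT-Co livers. All arrays of tumour-bearing mice were above the NT-Co arrays, opposite in direction to the bright tubulins, and the difference of T-TSU from NT-Co was 1.17 ± 0.55 (log2, limma adjusted p = 0.302). Tuba3b was dim, with all NT-Co arrays under the filter's intensity of 36.2, and passed the filter through the arrays of tumour-bearing mice. Tubg1, a gamma tubulin that nucleates microtubules, averaged 491 ± 27.1 in T-TSU, 509 ± 80.2 in T-Co and 550.0 ± 160.4 in NT-Co livers (SD, n = 3 each). Of 6 genes of the gamma-tubulin ring complex 0 passed in any comparison, and the one nearest was Tubgcp2 at -0.81 ± 0.25 in T-TSU against NT-Co livers (log2, adjusted p = 0.108), where 2 had an unadjusted p under 0.05. Ttc5, the gene of the tubulin mRNA autoregulation pathway that was tested, averaged 168 ± 43.1 in T-TSU, 187 ± 8.55 in T-Co and 163 ± 38.2 in NT-Co livers. Its difference of T-TSU from NT-Co was 0.04 ± 0.25 (log2, adjusted p = 0.962).

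Markers of the cell types in liver were read beside these results, as summed intensities of each list. The 10 hepatocyte markers summed to 244415 to 272402 in T-TSU, 299843 to 310418 in T-Co and 236767 to 262385 in NT-Co livers, and 1 of 10, Pck1, rose in T-TSU and 5 of 10 in T-Co livers, both against NT-Co, where 2.49% and 4.16% of all probe sets were called higher. All 10 were well measured, as in liver tissue. Stellate cell and fibroblast markers (9 of 10 tested) summed to 6736 to 7899.6 in T-TSU, 5875.5 to 6656 in T-Co and 7441 to 8265 in NT-Co livers. In T-Co against NT-Co livers 2 of 9, Col3a1 and Lum, fell, where 2.38% of all probe sets were called lower. The difference was below 0 for 7 of 9, whereas Des and Lrat differed by 1.05 ± 0.60 and 0.88 ± 0.42 (log2) and were not called. Endothelial markers (8 of 8 tested) summed to 1852 to 2598 in T-TSU, 2656 to 4277 in T-Co and 2232 to 2945 in NT-Co livers. In T-Co against NT-Co livers 1 of 8, Pecam1, rose, where 4.16% of all probe sets were called higher. Macrophage and Kupffer cell markers (9 of 9 tested) summed to 4629 to 9833 in T-TSU, 9992 to 14544 in T-Co and 7842 to 10560.0 in NT-Co livers. Neutrophil markers (4 of 6 tested) summed to 470.1 to 738 in T-TSU, 848 to 2132 in T-Co and 532 to 801 in NT-Co livers. Lymphocyte markers (4 of 8 tested) summed to 235 to 486 in T-TSU, 341 to 417 in T-Co and 222 to 487 in NT-Co livers.

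Cholangiocyte markers, of which Krt7, Epcam and Cftr were under the filter and 2 of 5 were tested, summed to 169 to 244 in T-TSU, 221 to 292 in T-Co and 213 to 284 in NT-Co livers. Proliferation markers, of which Mki67 and 6 others were under the filter and 8 of 15 were tested, summed to 1620 to 1789 in T-TSU, 1356 to 1794 in T-Co and 1443 to 2074 in NT-Co livers. Of the macrophage, neutrophil, lymphocyte, cholangiocyte and proliferation markers, 0 were called in any comparison, and of all lists 0 were called in T-TSU against T-Co livers. Over all probe sets, 6.54% were called in T-Co against NT-Co, 3.85% in T-TSU against NT-Co and 0.0505% in T-TSU against T-Co livers. By limma, an unadjusted p under 0.05 in that last comparison was found for 7 of 9 macrophage and 7 of 10 hepatocyte markers. It was also found for 3 of 9 stellate cell and fibroblast, 2 of 4 neutrophil and 2 of 8 endothelial markers. For cholangiocyte, proliferation and lymphocyte markers the counts were 1 of 2, 1 of 8 and 0 of 4. The share of all probe sets under that cutoff was not counted, so these counts have no background beside them. The summed hepatocyte signal of T-TSU livers overlapped with that of NT-Co livers, while T-Co livers lay above both. The neutrophil sums showed the same order. For macrophage and endothelial markers the T-Co sums lay above those of T-TSU livers and overlapped with those of NT-Co livers. For stellate cell and fibroblast markers the T-Co sums lay below both other groups. The part of cell composition in the tubulin differences was not tested.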

How the data were processed

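Liver RNA of 9 samples in 3 groups of 3 was hybridised to 3' expression arrays, and samples were grouped by their titles. Total RNA was column-purified and 5 µg of it labelled, per the labels' protocols. The deposited values are linear array intensities, 1 per probe set and sample. No label used here names the tools that summarised and scaled them. With the top and bottom 2% of values trimmed, the mean was 500.3 on every array, so the authors had scaled the deposited intensities to a common level. Of 22690 probe sets, 64 controls were left out. The platform annotation gave 1 gene for 20380 of the others, several for 691 and none for 1555, and only probe sets with 1 gene were named.

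A pseudocount of 7.92, the 10th percentile of the table, was added before log2, with no further normalization. Removing probe sets whose mean log2 value was under the 30th percentile left 15838. limma 3.58.1 in R 4.3.3 fitted 1 mean per group over the 9 arrays (6 residual degrees of freedom, empirical Bayes moderation along the intensity trend), with two-sided tests and Benjamini-Hochberg adjustment over all 15838. The number of arrays limits the precision. The script was tested on simulated data. The tubulin genes, the gene lists and the tests were chosen with earlier results of these data known.

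All tubulin probe sets with 1 gene were described. Of each list, up to 4 called genes per comparison with the smallest p could be named, or otherwise the 2 genes with the smallest p. Those 10 probe sets most like the bright Tubb2a probe set by Pearson correlation and the 5 least like it were named, as was the marker gene of each cell type with the highest and with the lowest difference. Not all genes that this rule allows are printed, and Col3a1 was named after its values were seen. Motifs were searched in RefSeq promoter windows of 250 bases with Python 3.11.15. Alternatives were pseudocounts of 1 and 32, no filter or one at the 50th percentile, quantile normalization, centring on array medians, no trend or a robust trend, only the groups compared, and leaving out each array.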

Additional observations from a re-analysis of the deposited data

How the results depend on the processing

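No paired analysis was made because the labels describe no pairing of samples between groups. With 3 arrays a group, a call depends on single arrays and on the variance model. In T-TSU against NT-Co livers 5 tubulin probe sets were called, against 2 without the intensity trend, 3 with a robust trend and 2 to 7 across the omissions of 1 array. The count was 2 without NT-Co replicate 8, 10 or 11 or T-TSU replicate 2 or 14, and the probe sets that held throughout were the bright ones of Tubb2a and Tubb4b. The NT-Co arrays entered the choice of the family, so these counts are not independent of it. In T-Co against NT-Co livers, the contrast that chose the family, the count of 4 describes that choice and its changes say nothing of stability. It was 2 without a filter, 1 without the trend, 2 with only these groups and 1 to 5 with 1 array left out, with 1 without NT-Co replicate 8 or 11 and 2 without T-TSU replicate 14. In T-TSU against T-Co livers it was 0, and 0 to 1 with 1 array left out. Of the linked genes, 5 were called in T-TSU against NT-Co livers, against 2 without the trend, 9 with only these groups and 2 to 8 with 1 array left out. That count was 2 or 3 without any 1 NT-Co array or T-TSU replicate 12 or 14, and 8 without T-Co replicate 10 or 13. In T-Co against NT-Co livers the 5 were 3 with only these groups and 2 to 5 with 1 array left out, the 2 or 3 coming without 1 NT-Co array.

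Over all probe sets, 609 were called in T-TSU against NT-Co livers, against 265 without the trend and 287 to 793 when 1 array was omitted, and 1036 in T-Co against NT-Co livers, against 473 and 445 to 1016. In T-TSU against T-Co livers 8 were called, against 25 with a pseudocount of 32, 0 without a filter, 1 with quantile normalization, 0 with median centring, 0 with no trend, 14 with a robust trend, 0 with only these groups and 0 to 58 with 1 array left out, with 58 without T-TSU replicate 12, 32 without T-Co replicate 10 and 0 to 3 when T-Co replicate 13, T-TSU replicate 2 or 14, or NT-Co replicate 8 or 11 was left out. The causes were not tested.

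The only differences to change sign were not called. In T-TSU against T-Co livers the difference of Tuba4a 1417373_a_at was 0.0058 with quantile normalization and 0.015 with median centring. With 1 array left out it was -0.34 to 0.32, that of Tuba4a 1417374_at -0.76 to 0.033, of Tuba1a -0.22 to 0.41, of Tubb2a 1427838_at -1.29 to 0.34 and of Tubb4b 1438622_x_at -0.10 to 0.39. In T-Co against NT-Co livers it was -0.64 to 0.13 for Tubb6, -0.12 to 0.37 for Tubb4b 1438622_x_at, -0.45 to 0.60 for Tubb4b 1456078_x_at and -0.075 to 0.23 for Tubb5 1455719_at. Centring and quantile normalization moved the median of all probe sets by less than the SE of any tubulin difference.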
